A study of Mus musculus with 8 samples.

Results

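Troponin I and troponin C each come in a slow and a fast form in skeletal muscle, and the array carried a gene for each: Tnni1 (slow troponin I), Tnni2 (fast troponin I), Tnnc1 (slow and cardiac troponin C) and Tnnc2 (fast troponin C). These are 4 of the 20 named genes on the array. They were taken by the gene annotation of the probes in the series table, which gave 24 of 132 probes, 6 spots for each gene. The FDB, or flexor digitorum brevis of the foot, was the fast muscle and the soleus of the calf was the slow one, both from CD-1 mice, an outbred stock, at an age of 4 to 5 weeks. The labels name no genotype or treatment and do not say how many animals were used or whether muscles were pooled.

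RNA of each muscle was used in amplified form, as dye-coupled RNA made with an amino allyl amplification kit, and in un-amplified form, as cDNA copied with an oligo(dT) primer from 10 micrograms of total RNA. Each of the 8 arrays compared an RNA coupled to the dye Cy3 with another coupled to Cy5. On 4 dye-swap arrays, FDB was set against soleus in 2 pairs with the dyes exchanged inside each pair. On 4 loop arrays, amplified RNA of FDB or soleus was set against un-amplified RNA of FDB or soleus, with 1 array for each combination.

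Troponin is the calcium switch of the thin filament. Troponin C binds calcium, troponin I holds actin and myosin apart until calcium is bound, and troponin T, which had no named probe here, ties the complex to tropomyosin. Slow fibres, which the soleus is rich in, are known to use Tnni1 and Tnnc1, of which Tnnc1 also serves the heart; fast fibres use Tnni2 and Tnnc2. In the GRCm38.p6 annotation of RefSeq, Tnni1 lies at chr1:135783033-135810989, Tnni2 at chr7:142441816-142444410, Tnnc1 at chr14:31208312-31211729 and Tnnc2 at chr2:164777161-164779734.

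The bases before an annotated transcription start are shown for the 3 of 4 genes that matched the RefSeq promoter table (build GRCm38.p6), so that the slow genes can be read beside a fast one. Each line gives the 250 bases before that start, 5′ to 3′ on the strand of the gene. The windows of Tnnc1 and Tnnc2 end at the outer edge of the gene, while that of Tnni1 belongs to a start inside the annotated gene span. Capitals mark matches to CTATTTTTA, a sequence of the type bound by the muscle factor MEF2, or to TATAA, the core of the TATA box, on either strand.
Tnnc1, chr14:31208062-31208311, plus strand: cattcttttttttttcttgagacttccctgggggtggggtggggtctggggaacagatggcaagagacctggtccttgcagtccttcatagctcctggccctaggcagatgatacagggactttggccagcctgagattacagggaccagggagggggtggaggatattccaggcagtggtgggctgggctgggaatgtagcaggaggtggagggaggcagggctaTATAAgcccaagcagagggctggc
Tnni1, chr1:135799171-135799420, plus strand: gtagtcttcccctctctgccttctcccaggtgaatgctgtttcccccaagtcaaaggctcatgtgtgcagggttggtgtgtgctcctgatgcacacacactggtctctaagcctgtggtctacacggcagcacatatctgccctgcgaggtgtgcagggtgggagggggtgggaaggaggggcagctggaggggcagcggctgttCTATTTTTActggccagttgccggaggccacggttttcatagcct
Tnnc2, chr2:164779735-164779984, minus strand: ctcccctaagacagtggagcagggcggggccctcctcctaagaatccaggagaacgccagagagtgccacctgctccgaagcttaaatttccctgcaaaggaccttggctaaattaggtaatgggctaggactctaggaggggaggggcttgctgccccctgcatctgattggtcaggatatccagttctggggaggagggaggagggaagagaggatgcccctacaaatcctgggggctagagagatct

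The MEF2-type match in the Tnni1 window began 45 bases before the start, and the TATAA match in the Tnnc1 window began 24 bases before it. The table held 2 windows for Tnni1, both inside the gene span and overlapping; the other one held the same MEF2-type match. The bases before the outer edge of Tnni1 are not shown. Over 32851 windows of this length in the table, 0.454% held CTATTTTTA and 22.8% held TATAA. The E-box letters CANNTG occurred at 4 positions in the Tnni1 window and at 2 positions each in those of Tnnc1 and Tnnc2, and 66.2% of all windows held at least 1. The letters searched for do not overlap each other in these windows, they were chosen with the sequences in view, and a match describes the letters only.

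The depth of measurement differed between the dye-swap pairs. In the first pair, whose scanner files are labelled amplified, Tnni2 lay near the background, with 0 usable spots of 6 on 1 array and 1 of 6 on the other, so no ratio over both dye orientations could be formed for it there. In all, 31 of 48 spots of Tnni2 and 43 of 48 spots of each other troponin gene were usable. The labels of the pairs are in doubt: columns labelled amplified in the deposited ratio table hold the values of the scanner files labelled un-amplified, and columns labelled un-amplified those of the files labelled amplified. Between 99.2% and 100% of values fitted in this crossed order, with a tolerance of 0.001 on the natural log, and at most 2.885% in any other. The pairs are therefore called the first and the second, and a result that needs to know which pair was amplified is given with either label. Each array was centred on the median of all its features, so that a log2 ratio of 0 is that of the median feature. The labels do not say whether samples came from separate animals, so p-values rest on a spread that may be technical only, and the number of arrays limits the precision. The replicate ratios between the muscles, given below, are not repeats of the same condition. Each dye-swap pair is labelled with a single kind of RNA, and the loop ratio averages both kinds. Their spread therefore includes any difference in the fast/slow ratio between amplified and un-amplified RNA. In whole muscle, fewer fibres of a type and less RNA per fibre cannot be told apart.

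Slow troponin C, Tnnc1, was lower in FDB than in soleus in every replicate ratio. On the dye-swap arrays its log2 fast/slow ratio was -0.43 and -1.42 in the first pair and -1.68 and -1.18 in the second. Averaged over the dye orientations these gave -0.92 for the first pair and -1.43 for the second, and the dye-balanced ratio of the loop was -1.68. The lowest and the highest of these ratios differed by less than their distance from 0. With limma, 5 of the 21 features tested passed an adjusted p of 0.05 between the muscles, 23.8% of those tested, and Tnnc1 was the 1 troponin gene among them. Its mean log2 ratio was -1.35 ± 0.39 (SD, n = 3 replicate ratios; 95% interval -2.27 to -0.42; adjusted p = 0.0240), a level 2.54-fold lower in FDB. Intervals between the muscles use an SE that limma pooled over features, not the gene's own SD. This SE was 0.46 with 3 replicate ratios and 0.56 with 2. Without the second pair the mean of Tnnc1 was -1.30 (adjusted p = 0.182 by limma), and without the loop it was -1.18 (adjusted p = 0.122). The call was also lost with loess normalization and with the gene's own variance in place of the pooled one.

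Fast troponin C, Tnnc2, did not pass the test between the muscles, and its mean ratio was about as large as the SD of its replicate ratios. Its log2 fast/slow ratio was 0.25 and 0 in the first pair and 0 and 1.35 in the second. On the arrays with a ratio of 0, Tnnc2 was itself the median feature, so this value was set by the centring. The replicate ratios were 0.13, 0.68 and 0.14 for the first pair, the second pair and the loop. All were above 0, yet their mean of 0.31 ± 0.31 (SD, n = 3; 95% interval -0.61 to 1.24) did not pass limma's test (adjusted p = 0.741).

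Slow troponin I, Tnni1, gave replicate ratios that disagreed, and its loop ratio averaged values that differed between the kinds of RNA. In the first pair its log2 fast/slow ratio was -0.097 and 0.13, which average to 0.018. In the second pair it was -1.06 and -1.11, and in the loop the dye-balanced ratio was -1.05. The loop value averages -2.26 in amplified and 0.15 in un-amplified RNA, neither of them close to -1. Thus the second pair and the loop average were close to -1. The first pair and the un-amplified RNA of the loop were closer to 0. The mean was -0.71 ± 0.63 (SD, n = 3; 95% interval -1.63 to 0.22; adjusted p = 0.343 by limma), and without the first pair it was -1.07 (adjusted p = 0.152). In the first pair the median signal over background of Tnni1 lay between 3.63 and 25.1, against 149 to 936 in the second; the part of this in the ratio was not tested.

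Fast troponin I, Tnni2, had 2 replicate ratios of opposite sign. Its log2 fast/slow ratio was 0.23 and 0.93 on the arrays of the second pair, which average to 0.58, and the loop gave -0.33. In the first pair the 1 usable spot gave 0.19. The mean of the 2 replicate ratios was 0.12 ± 0.64 (SD, n = 2; 95% interval -1.01 to 1.26; adjusted p = 0.942 by limma). The interval rests on the pooled SE of 0.56, not on this SD of 2 ratios. The direction of Tnni2 turned under loess (-0.012) and with all arrays in 1 fit (-0.052).

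**Figure D1:**
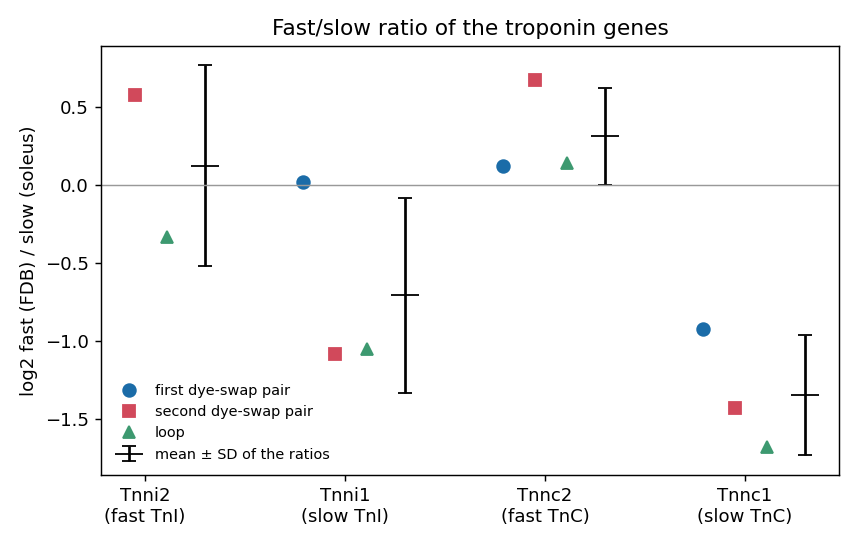
Log2 fast (FDB) over slow (soleus) ratio of each troponin gene, relative to the median feature of its arrays; each point is a replicate ratio (the first dye-swap pair, the second dye-swap pair, the loop) and the black bar is their mean ± SD. The 3 points of Tnnc1 lie between -0.92 and -1.68, those of Tnnc2 between 0.13 and 0.68, and Tnni2 has no point for the first pair.

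The 2 loop arrays that crossed the muscles also crossed the kinds of RNA, and on both of them the amplified RNA was the higher one for Tnni2, Tnnc1 and Tnnc2. For Tnni2, amplified FDB over un-amplified soleus had a log2 ratio of 3.48 and un-amplified FDB over amplified soleus one of -4.15. For Tnnc1 the same arrays gave 0.28 and -3.65, for Tnnc2 1.56 and -1.28, and for Tnni1 -0.44 and -1.67. Only Tnni1 thus had the same sign on these arrays. The loop ratios given above are the means of these values, in which amplification and dye cancel.

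Set side by side on the same arrays, the fast isoform had the higher fast/slow ratio in both families in each replicate ratio. For troponin I the order was reversed within the un-amplified RNA of the loop, with Tnni2 at -0.56 and Tnni1 at 0.15. The gap is the log2 fast/slow ratio of the fast isoform minus that of the slow isoform, and the centring of the arrays cancels in it. For troponin C, Tnnc2 minus Tnnc1, it was 1.05 in the first pair, 2.11 in the second and 1.82 in the loop, with a mean of 1.66 ± 0.55 (SD, n = 3), a 3.16-fold difference in ratio. By array the troponin C gap was 0.68, 1.42, 1.68 and 2.53 in the dye swap, above 0 on each array. On the loop arrays that crossed the muscles it was 1.27 and 2.37. There the gap between the muscles is mixed with the gap between the kinds of RNA. An exact sign-flip permutation test gave p = 0.25, two-sided, which is the smallest that 3 ratios allow. For troponin I, Tnni2 minus Tnni1, the gap was 1.67 in the second pair and 0.72 in the loop, with a mean of 1.19 ± 0.67 (SD, n = 2; exact sign-flip p = 0.5, the smallest that 2 ratios allow). By array it was 0.055 on the measured array of the first pair, 1.29 and 2.04 in the second pair, and 3.92 and -2.48 on the crossed loop arrays. The gap of troponin I therefore went below 0 where un-amplified FDB met amplified soleus, and that of troponin C did not; the difference between the families was not tested. With the dyes of 1 array taken from its file names in place of its headers, the mean gaps were 0.17 for troponin I and 0.82 for troponin C. That of troponin I was also 0.66 under loess, 0.65 with all arrays in 1 fit, 0.76 with the authors' ratios and 0.72 without the second pair.

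Amplified RNA gave more signal than un-amplified RNA for Tnni2 and Tnnc1, relative to the median feature, while Tnnc2 and Tnni1 did not pass the test. This comparison rests on the loop. The log2 amplified/un-amplified ratio of Tnni2 was 2.20 within FDB and 1.73 within soleus, and 3.48 and 4.15 on the crossed arrays. It was thus above 0 on all 4 loop arrays. In limma's fit with terms for amplification, muscle and dye, 9 of 21 features passed, 42.9% of those tested, and 2 troponin genes were among them, so the members' share was close to that of all features. The fitted ratio of Tnni2 was 2.89 (SE 0.52; adjusted p = 0.000156), 7.42-fold higher in amplified RNA.

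For Tnnc1 the ratio was 1.18 within FDB and 1.73 within soleus, and 0.28 and 3.65 on the crossed arrays. Its fitted ratio was 1.71 (SE 0.52; adjusted p = 0.0115 by limma), 3.28-fold higher in amplified RNA. For Tnnc2 the ratios were 0.71 within FDB and 0.42 within soleus, and 1.56 and 1.28 on the crossed arrays, all above 0. The fitted ratio of Tnnc2 was 0.99 (SE 0.52; 95% interval -0.082 to 2.07; adjusted p = 0.131). Loess ended the calls of Tnni2 (1.94, adjusted p = 0.0963) and of Tnnc1 (0.71, adjusted p = 0.215), and the call of Tnnc1 was also lost with no centring (1.08, adjusted p = 0.0614) and with marked spots kept (0.91, adjusted p = 0.139). The SE is pooled over features, and the residual behind it is the difference in the amplification effect between the muscles, not a spread between replicates; with each feature's own variance 0 of 21 passed, with 2 at an unadjusted p below 0.05.

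Tnni1 had ratios of opposite sign in the muscles, as did some other features of the array. Its log2 amplified/un-amplified ratio was -1.12 within FDB and 1.29 within soleus, each on 1 array, and with the dye term of -0.27 removed the values were -0.85 and 1.56. The 5 usable spots behind each value had an SD of 0.093 in FDB and 0.074 in soleus. The crossed arrays gave -0.44 where FDB was the amplified RNA and 1.67 where soleus was. Its fitted ratio, the mean of the muscles, was 0.35 (SE 0.52; adjusted p = 0.624 by limma), and it turned to -0.28 with no centring and to -0.51 under loess.

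**Figure D2:**
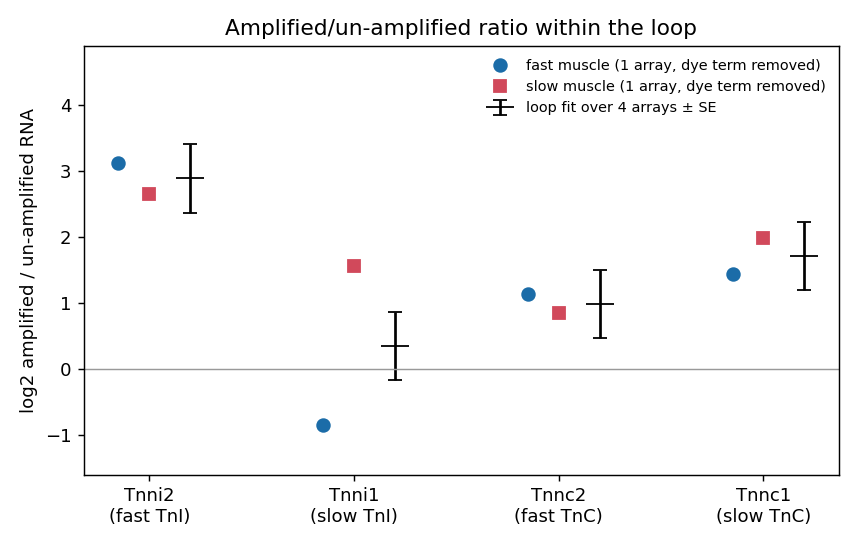
Log2 amplified over un-amplified RNA of each troponin gene in the loop, relative to the median feature; the circle is fast muscle (FDB), the square slow muscle (soleus), 1 array each with the fitted dye term removed, and the black bar is the fit over 4 arrays ± SE. Tnni2 lies at 3.12 in fast and 2.66 in slow muscle, and Tnni1 at -0.85 in fast and 1.56 in slow muscle.

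The amplified/un-amplified ratios were also set against each other within a family, as fast minus slow isoform. Tnni2 minus Tnni1 was 3.98 in FDB and 1.10 in soleus, 2.54 over the loop. Tnnc2 minus Tnnc1 was -0.30 in FDB and -1.14 in soleus, -0.72 over the loop. In troponin I the fast isoform had the higher ratio in each muscle, and in troponin C the slow one did. The value for troponin C over the loop was 0.027 with marked spots kept. These differences rest on 1 array per muscle and have no test.

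**Figure D3:**
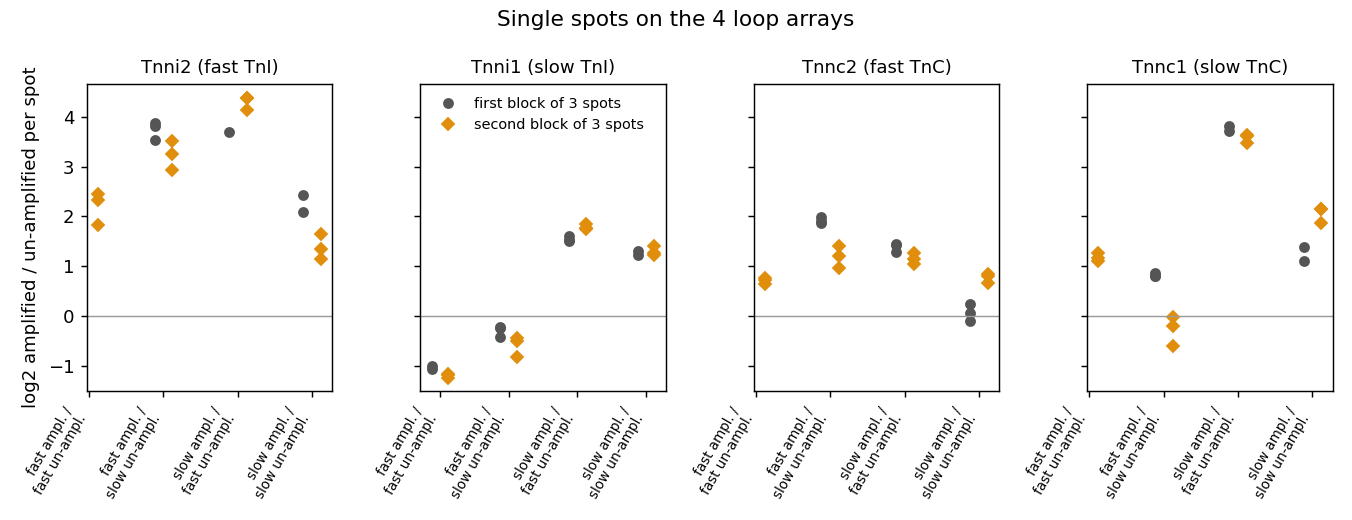
Log2 amplified over un-amplified RNA of every usable spot of the troponin genes on the 4 loop arrays, named on the horizontal axis by the RNAs compared; circles are the first block of 3 spots of a gene and diamonds the second. Every spot of Tnni2 lies above 0, those of Tnni1 lie below 0 on the arrays with amplified FDB and above 0 on those with amplified soleus, and Tnnc1 has spots on either side of 0 where amplified FDB met un-amplified soleus.

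The spots of a gene stood in 2 blocks of 3 at different places on the array, and the blocks differed on some loop arrays. Where amplified FDB met un-amplified soleus, the log2 Cy3/Cy5 ratio of Tnnc1 was -0.83 in the first block and 0.26 in the second, so the blocks had opposite signs. The second block minus the first was 0.72 for Tnnc2 and 0.51 for Tnni2 on that array. Within soleus this difference was 0.80 for Tnnc1, 0.70 for Tnnc2 and -0.89 for Tnni2. For Tnni1 it stayed within 0.29 on all 8 arrays. With the second block alone the calls held, with Tnnc1 at -1.27 between the muscles (adjusted p = 0.0237 by limma) and, between the kinds of RNA, Tnni2 at 2.69 (adjusted p = 0.0298) and Tnnc1 at 1.55 (adjusted p = 0.0376). With the first block alone Tnnc1 had -1.38 between the muscles (adjusted p = 0.0428), and Tnni2, Tnnc1 and Tnnc2 had no usable spot on the array of amplified against un-amplified FDB.

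The fast/slow ratio was also read within each kind of RNA. In the loop, Tnni1 had a log2 fast/slow ratio of -2.26 in amplified and 0.15 in un-amplified RNA. Tnnc1 had -1.96 in amplified and -1.41 in un-amplified RNA, lower in FDB in both. Tnni2 had -0.097 in amplified and -0.56 in un-amplified RNA, and Tnnc2 0.29 in amplified and -0.0062 in un-amplified RNA. Tnni2 was thus above Tnni1 in amplified RNA and below it in un-amplified RNA, while Tnnc2 was above Tnnc1 in both. The loop values are differences between the arrays given above, without replicates, so their order within a gene or a family has no test from the loop alone.

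The amplified minus un-amplified difference in this ratio was set beside that of the dye swap. For Tnni1 it was -2.41 in the loop and 1.10 in the dye swap as the scanner files label it. For Tnnc1 it was -0.55 in the loop and 0.51 in the dye swap, and for Tnnc2 0.29 and -0.55. All 3 genes had opposite signs in the loop and the dye swap with the file labels, and by construction the same sign with the labels of the table. Most of the 13 features with both values also had opposite signs with the file labels, so this was not particular to the troponin genes. By limma with the file labels 0 of 13 features passed, 0% of those tested, with 0 at an unadjusted p below 0.05 and an adjusted p of 0.992 for each of these genes. When the labelling of the ratio table was used, 2 of 13 features passed, 15.4%, and no troponin gene was among them. The mean differences were then -1.76 for Tnni1 (adjusted p = 0.108), -0.53 for Tnnc1 (adjusted p = 0.0525) and 0.42 for Tnnc2 (adjusted p = 0.108). Tnni2 had a loop value of 0.47 and none from the dye swap.

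Signal over background differed between the dye-swap pairs and between the kinds of RNA. On the dye-swap arrays these medians are over all 6 spots, those marked as empty or poor included, and in the loop over spots usable in the channel with a background above 0. The dye-swap signal is mean intensity before background subtraction, while the loop signal is an integral treated as background-subtracted. Their ratios to background are therefore not on the same scale. In the first pair the median of the spots, by channel, lay between 1.06 and 2.27 times the background for Tnni2, 1.93 and 11.5 for Tnnc1, 3.63 and 25.1 for Tnni1, and 11.2 and 35.3 for Tnnc2. In the second pair all 4 genes were far above it, from 83.2 for Tnnc2 to 936 for Tnni1. The second pair was higher than the first in every channel of these genes. Signal over background was not computed for the other features, so this cannot be read as particular to the troponin genes. Over all features, 14 and 19 were measured on the arrays of the first pair, against 21 on each array of the second.

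In the loop, the ratio of integral signal to background lay between 63.6 and 1132 in amplified channels and between 2.63 and 88.5 in un-amplified channels. For Tnni2 the amplified channels had 149 and 1132 in FDB and 114 and 125 in soleus, while the un-amplified channels had 2.63 and 16.7 in FDB and 3.98 and 53.1 in soleus. The crossed arrays, with un-amplified channels of Tnni2 at 3.98 and 2.63, had its largest amplified/un-amplified log2 ratios, 3.48 and 4.15; the part of the low signal in them was not tested. The lowest amplified and the highest un-amplified channel were 63.6 and 45.6 for Tnni1, 109 and 56.9 for Tnnc1, and 110 and 88.5 for Tnnc2. Other features were not summarized in this way. A background of 0 was listed for 46.2% to 58.3% of usable spots in amplified loop channels and for 0% in un-amplified ones. A ratio to background is therefore not comparable between the kinds of RNA, and the gap between their channels is not a result about the troponin genes. Saturated pixels were present in 2 of 80 usable loop spots of the troponin genes.

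**Figure D4:**
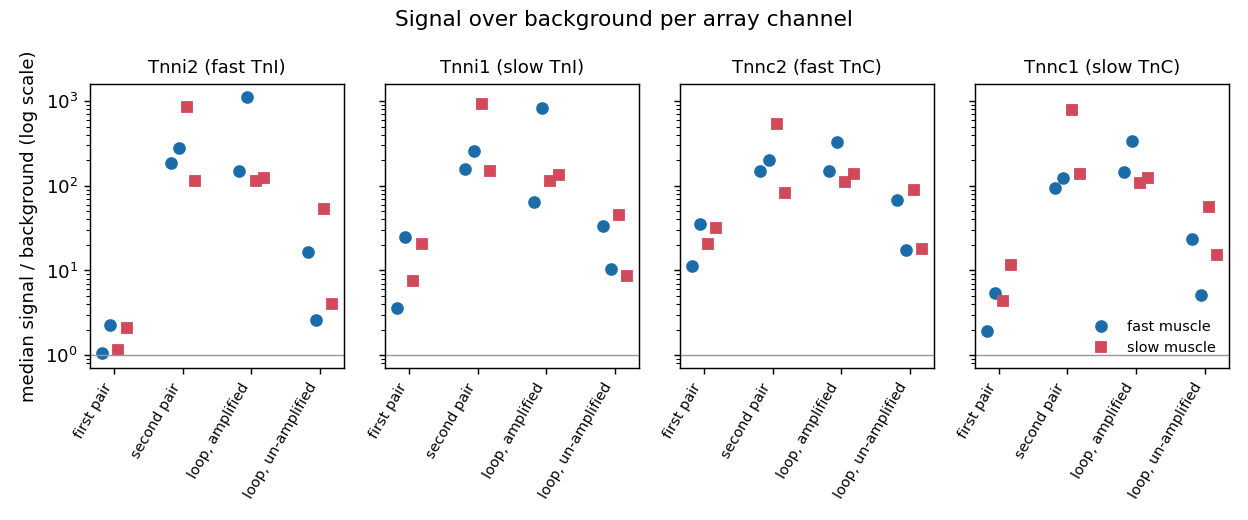
Median signal over background of each troponin gene per array channel, on a log scale, with circles for fast (FDB) and squares for slow (soleus) muscle. The grey line marks a ratio of 1, which is signal equal to background on the dye-swap arrays only. In the loop the signal is an integral treated as background-subtracted, so its ratios are not on the scale of the dye swap. Tnni2 in the first pair lies between 1.06 and 2.27, against 114 to 857 in the second pair.

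The features most like each troponin gene were found by the cosine of their log2 Cy3/Cy5 ratios over the arrays where both were measured, as a description. For Tnnc1 these were Myh7, the slow myosin heavy chain (0.960, 7 arrays), and Acta1, skeletal actin (0.915, 8 arrays). For Tnni1 they were Ldhb, a lactate dehydrogenase subunit of slow and cardiac muscle (0.899, 7 arrays), and Myh7 (0.841, 7 arrays). For Tnnc2 they were Tnni2 (0.902, 7 arrays) and Mb, the oxygen store myoglobin (0.760, 8 arrays). For Tnni2 they were the unnamed feature of probes 19 to 24 (0.927, 7 arrays) and Tnnc2 (0.902, 7 arrays). Tnni1 and Tnnc1 had a cosine of 0.694 over 8 arrays, and fast Tnni2 with slow Tnnc1 had 0.660 over 7. All of these points share arrays, dyes and the kind of RNA.

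Among listed contractile genes, the troponins included, 3 of 10 slow ones were measured, and 2 of these fell in FDB, Tnnc1 and Myh7, with a median log2 ratio of -1.35. Of 12 listed fast ones 5 were measured and 1 rose, the myosin heavy chain Myh1, with a median of 0.47. Over all 21 features tested 2 rose and 3 fell, with a median of -0.048. Between amplified and un-amplified RNA, 2 of 3 slow genes rose (median 1.71) and 1 of 5 fast genes, Tnni2 (median 0.94), against 6 higher and 3 lower of 21 over all features (median 0.075). Of the 10 listed markers of nerve, blood, fat, endothelium and immune cells 0 were on the array. Of the 3 connective tissue markers 1 was measured, matrix Gla protein (Mgp), with a log2 fast/slow ratio of -0.034 and a log2 amplified/un-amplified ratio of -0.62, neither past limma's test. Of the 3 heart markers 1 was measured, the cardiac myosin heavy chain Myh6, with a log2 fast/slow ratio of -0.90 that did not pass and a log2 amplified/un-amplified ratio of -1.77 that did. Their part in the troponin ratios was not tested.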

How the data were processed

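Dye-swap arrays came as 1 ImaGene file per channel with mean and median pixel intensity per spot, before background subtraction, per the file headers. Signal area and background SD are further deposited signal columns. Loop arrays came as deposited sheets of integral intensity per spot, treated as background-subtracted, with the fraction of unsaturated pixels; the software is not given in the sources used. A deposited table gives the ratio of Cy3 to Cy5 per probe, which the authors had multiplied by 1 factor per array, as a match to the scanner values showed. That match placed the 132 probes on the grid of 9 by 16 spots, 129 directly and 3 by their block of 3, and left 12 spots without a probe. The probes form 22 features, of which 20 have a gene name.

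In the channel files of 1 array the header named the other dye than the file name, and the header was used. Dye-swap signals were corrected by normexp with an offset of 50. For ratios, spots marked empty or poor in either channel were left out, the other spots of a feature were averaged as log2 ratios, and the median feature of every array was set to 0. For FDB against soleus, limma 3.58.1 (R 4.3.3) tested features with at least 2 of 3 replicate ratios, namely a mean per dye-swap pair and a loop ratio balanced for dye. Amplification was fitted on the loop with terms for muscle and dye. All tests were two-sided and adjusted over all features by the Benjamini-Hochberg method at 0.05. The scripts were tested on simulated data. Alternatives were loess (span 0.3), no centring, other background and signal measures, the median of spots, marked spots kept, dim features left out, all arrays in 1 fit, replicates left out, the other labels and dyes, the authors' ratios, each feature's own variance and, added after seeing the data, either block of 3 spots.

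The members and lists were chosen with earlier results of these data known. Named genes were the 4 troponin genes, the 2 features most like each (over at least 6 arrays), and the lists as counts.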

Additional observations from a re-analysis of the deposited data

Results flagged for a closer look

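The amplified/un-amplified ratio of Tnni1 had opposite signs in the muscles of the loop, below 0 in FDB and above 0 in soleus. The difference, FDB minus soleus, was -2.41 on the log2 scale. It rests on 1 array per muscle, so the loop alone gives no test of it. In the dye swap the same difference was 1.10 with the labels of the scanner files and -1.10 with those of the series table. With the 2 values of each labelling limma gave an adjusted p of 0.992 and 0.108. Opposite signs in the muscles were not particular to Tnni1, though most of the 21 features tested had the same sign in both. With the dye term removed, Ldhb, the feature most like Tnni1, had -1.84 in FDB and 1.28 in soleus.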

How the results depend on the processing

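Between the muscles 5 features passed, 2 higher and 3 lower in FDB. The count was 1 under loess (0 higher) and 3 with the first block of spots alone. It was 0 by limma with file-name dyes (2 by unadjusted p below 0.05) and 0 with each feature's own variance (3 unadjusted). With a replicate ratio left out it lay between 0 and 5, and it was 0 without the second pair (2 unadjusted). Only 13 features could be tested without the second pair, against 21 in the main run. Myh7 and Ldhb, called in the main run, were not among them. The direction of Tnnc1 and Tnni1 held under every alternative run, from -1.56 to -0.95 and from -1.07 to -0.34. The call of Tnnc1 was lost under loess (-1.08, adjusted p = 0.102), with the dyes of the file names (-0.95, adjusted p = 0.475), with its own variance (adjusted p = 0.259), without the second pair and without the loop. Tnni2 turned to -0.012 under loess, -0.052 with all arrays in 1 fit and -0.34 with the dyes of the file names, and Tnnc2 to -0.14 with those dyes. The mean gaps moved to 0.17 for troponin I and 0.82 for troponin C with those dyes. That of troponin I was also 0.66 under loess, 0.65 with all arrays in 1 fit and 0.76 with the authors' ratios. Without 1 replicate ratio the gaps lay between 0.72 and 1.67 and between 1.44 and 1.96. The authors' ratios matched the dyes of the header.

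Between the kinds of RNA 9 of 21 features passed, 6 higher and 3 lower. The count was 4 with no centring and 4 with marked spots kept, each with 1 higher and 3 lower. It was 0 under loess (6 at an unadjusted p below 0.05) and 0 with own variances (2 unadjusted). With the first block 2 passed, but only 11 features could be tested there. Tnni2, Tnnc1 and Tnnc2 were not among these. Without centring the median feature moved by -0.63, and between the muscles by 0.19. Tnni2 and Tnnc1 stayed above 0 under every alternative run, and Tnnc2 passed with all arrays in 1 fit (adjusted p = 0.0242). Tnni1 turned to -0.28 with no centring, -0.51 under loess and -0.25 without the array within soleus, and lay at 0.95 without the one within FDB. Tnnc2 turned to -0.11 under loess, and the troponin C gap to 0.027 with marked spots kept. Without either array within a muscle, that gap lay between -0.93 and -0.51 and the troponin I gap between 1.82 and 3.26. Leaving out a crossed loop array left the amplification term inestimable.

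The amplification difference had 0 calls, and 2 with the labels of the table. With a dye-swap pair or the loop left out, Tnni1 lay between -2.41 and 1.10, Tnnc1 between -0.55 and 0.51 and Tnnc2 between -0.55 and 0.29. Tnni1 turned to 0.25 under loess. Tnnc1, at -0.023, turned to 0.083 with no centring, 0.37 under loess, 0.053 with no background subtraction, 0.0055 with integral intensity, 0.57 with marked spots kept and 0.15 with all arrays in 1 fit. Tnnc2, at -0.13, turned to 0.13 under loess, 0.42 with the labels of the table, 0.55 with the dyes of the file names and 0.30 with the authors' ratios, which carry the labels of the table, so that labels and ratio source change together there. The cause of these shifts was not tested. No paired analysis was possible because the labels give no replicate numbers that pair samples across groups, the numbers used being names in accession order. Each dye-swap ratio already sets the muscles against each other on the same array.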
